A study of Mus musculus with 6 samples.

Results

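The small nucleolar RNAs (snoRNAs) and small Cajal body RNAs (scaRNAs) of cardiomyocyte nuclei were read from total nuclear RNA. They were selected on their level, as the genes whose biotype is snoRNA or scaRNA and whose mean over 6 libraries was at least 10 normalised read counts. This rule gave 121 genes, 108 of biotype snoRNA and 13 of biotype scaRNA, out of 1558 snoRNA and scaRNA genes and 54232 genes in the table. The levels of these genes are therefore given as a description without a test. There were 3 libraries of UtyGT and 3 of wild-type (WT) adult male mice. UtyGT mice carry the Uty Gt(XS0378)Wtsi gene trap in intron 4 of Uty on the Y chromosome, and their WT counterparts carry an untrapped Y chromosome of the same 129P2 origin, both strains being backcrossed to C57BL/6J. For each library 150000 nuclei, sorted for the pericentriolar protein PCM1 that marks cardiomyocyte nuclei, were prepared from a frozen left ventricle, and the libraries of both groups carry the numbers 11, 15 and 31. Per the methods ATAC-Seq preparations of the same nuclear material were made on 3 days, and a deposited table named for a day effect leaves out number 15, but the labels tie no number to a day, a litter or an animal, so p-values measure the spread between these libraries.

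A snoRNA pairs with a target RNA and brings an enzyme to one of its bases. C/D box snoRNAs carry the boxes C and D near their ends and guide methylation of the ribose by fibrillarin, whereas H/ACA box snoRNAs end in an ACA box and guide the conversion of uridine to pseudouridine by dyskerin. Most of their targets are in ribosomal RNA, while scaRNAs collect in Cajal bodies and guide the same changes in the small nuclear RNAs of the spliceosome. A few snoRNAs, such as U3, U8, U14 and U17, serve the cleavage or processing of the ribosomal precursor. In mammals most snoRNAs are cut out of the introns of host genes, many of which encode proteins of translation or are noncoding.

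The gene symbol, or for scaRNAs the symbol or the biotype, gave a class for 52 of the 121 genes. There were 25 C/D box snoRNAs, 13 H/ACA box snoRNAs and 14 scaRNAs. Some of the scaRNAs have Gm symbols and were classed by biotype (Scarna9 was counted as a scaRNA although its biotype is snoRNA). The remaining 69 had Gm symbols that state no class. The transcript sequences, which come from GENCODE M21 on the build GRCm38, were searched on their own strand for TGATGA (the core of box C) starting in the first 25 bases together with CTGA (box D) in the last 25 bases, and for ACA placed 3 bases before the end. The C/D pair was found in 32 genes and the ACA box in 50 (1 gene held both), which made 26.4% and 41.3% of the 121 genes, whereas 20.7% and 19.3% of all 1558 genes held them. On the opposite strand the same letters were found in 0% and 1.16% of the 1558. Of the 25 genes with a C/D symbol 19 held the C/D pair and none held the ACA box, and of the 13 with an H/ACA symbol 11 held the ACA box. Among the 69 genes without a class, 34 ended in the ACA box, 8 held the C/D pair and 28 held neither. A missing match says only that these letters were not in these windows.

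The sequences of 10 genes that the results turn on are printed with the matched boxes in capitals. Snord15a lies in an intron of Rps3 (chr7:99482785-99482932, minus strand), Snord17 in an intron of Snx5 (chr2:144265979-144266216, minus strand) and Gm25835 in an intron of Eif4a1 (chr11:69668852-69668995, minus strand), and they had the highest levels among genes with the C/D pair outside the scaRNAs. Each showed box C near the start and box D near the end.
Snord15a: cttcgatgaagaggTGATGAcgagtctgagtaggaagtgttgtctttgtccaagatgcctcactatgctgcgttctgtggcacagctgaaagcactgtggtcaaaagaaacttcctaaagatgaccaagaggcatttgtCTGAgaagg
Snord17: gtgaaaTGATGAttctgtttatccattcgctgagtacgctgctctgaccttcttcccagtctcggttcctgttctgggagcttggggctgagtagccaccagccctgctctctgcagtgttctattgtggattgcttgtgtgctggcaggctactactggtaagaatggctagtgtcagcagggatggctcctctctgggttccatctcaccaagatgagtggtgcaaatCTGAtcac
Gm25835: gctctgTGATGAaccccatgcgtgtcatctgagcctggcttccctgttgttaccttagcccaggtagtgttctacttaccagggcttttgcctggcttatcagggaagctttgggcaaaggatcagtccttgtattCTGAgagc

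Gm25395 (chr1:87776938-87777209, plus strand) and Scarna6 (chr1:87784556-87784820, plus strand) lie 7346 bases apart in introns of Atg16l1, an autophagy gene, and are shown because the ratio of their levels varied little across the libraries. They were identical at 174 of 280 aligned positions (62.1%). Scarna13 (chr12:105031075-105031349, minus strand), in an intron of the noncoding Snhg10, was among the 3 highest genes and ended in the ACA box. Scarna9 (chr9:15326264-15326333, minus strand), in an intron of Cep295, had one of the lowest unadjusted p-values between the mouse groups.
Gm25395: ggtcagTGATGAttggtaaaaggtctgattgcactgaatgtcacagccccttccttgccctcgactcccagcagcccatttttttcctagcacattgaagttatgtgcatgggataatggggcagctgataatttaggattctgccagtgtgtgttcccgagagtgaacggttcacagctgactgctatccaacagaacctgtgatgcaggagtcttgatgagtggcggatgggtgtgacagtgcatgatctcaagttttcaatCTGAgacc
Scarna6: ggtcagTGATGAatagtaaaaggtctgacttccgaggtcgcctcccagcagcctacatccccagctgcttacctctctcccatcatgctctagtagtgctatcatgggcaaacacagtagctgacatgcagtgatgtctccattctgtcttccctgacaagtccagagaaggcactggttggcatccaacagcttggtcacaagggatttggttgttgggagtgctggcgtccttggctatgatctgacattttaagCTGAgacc
Scarna13: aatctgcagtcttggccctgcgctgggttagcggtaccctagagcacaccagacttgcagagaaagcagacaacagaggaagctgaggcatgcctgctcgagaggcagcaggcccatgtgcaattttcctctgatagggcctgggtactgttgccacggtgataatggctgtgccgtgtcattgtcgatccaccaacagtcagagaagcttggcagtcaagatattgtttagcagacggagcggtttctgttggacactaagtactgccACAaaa
Scarna9: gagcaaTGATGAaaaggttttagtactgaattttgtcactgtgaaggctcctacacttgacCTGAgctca

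Snora73b, the U17 snoRNA (chr4:132352322-132352526, minus strand, in an intron of Rcc1), and Gm26448 (chr9:120129351-120129553, plus strand, in an intron of Rpsa) are shown as a pair of near copies, identical at 180 of 205 aligned positions (87.8%). Gm22270 (chr5:107905177-107905308, plus strand), in an intron of Rpl5, had the largest log2 difference between the mouse groups.
Snora73b: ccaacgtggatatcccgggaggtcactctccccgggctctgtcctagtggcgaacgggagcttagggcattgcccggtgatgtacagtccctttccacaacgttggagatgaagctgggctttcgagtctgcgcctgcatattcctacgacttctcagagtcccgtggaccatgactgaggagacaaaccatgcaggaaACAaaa
Gm26448: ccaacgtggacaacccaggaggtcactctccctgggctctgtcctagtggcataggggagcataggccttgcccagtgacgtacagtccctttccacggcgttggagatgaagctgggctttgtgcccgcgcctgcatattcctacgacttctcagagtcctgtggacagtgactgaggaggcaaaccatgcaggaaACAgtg
Gm22270: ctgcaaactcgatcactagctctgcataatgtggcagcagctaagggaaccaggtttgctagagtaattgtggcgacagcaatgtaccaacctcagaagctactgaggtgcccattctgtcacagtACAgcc

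The libraries held between 18204752 and 23252887 reads in genes. Uty, the trapped gene, averaged 18.7 ± 4.13 normalised counts in UtyGT nuclei and 1286 ± 65.1 in WT nuclei (SD, n = 3 each). The ventricular cardiomyocyte markers were high in every library, with a summed level of 782955 to 941833. The libraries numbered 15 stood apart on the first principal component, which held 73.3% of the variance, and the summed level of 6 leukocyte markers was 620 (UtyGT) and 1499 (WT) in them, against 7604 to 17903 in the other 4 libraries. Libraries of the same group differed by more than sampling noise (chi-square over degrees of freedom up to 53.7). In such bulk data fewer cells of a type and less RNA per cell cannot be told apart.

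Most annotated snoRNA and scaRNA genes had no reads. Of the 1558 genes, 1196 were at 0 in every library, 241 were above 0 with a mean under 10, and 121 passed the rule. At this depth a gene without reads may still have a level of up to 3 reads, or 2.76 to 3.24 normalised counts depending on the library. Just inside the threshold were Gm23346, Gm22581 and Gm23722 (means 10.3, 10.3 and 10.1), and just outside were Gm26175, Gm24154 and Gm22728 (means 9.49, 9.35 and 9.29).

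Several snoRNAs of known function were among the genes at 0. All 10 U3 rows (Rnu3a and Rnu3b1 to Rnu3b4, which guide the first cleavages of the ribosomal precursor), the 4 U14 rows (Snord14a, Snord14c, Snord14d and Snord14e), Snord22, Snord33 and 17 genes of the Snord116 cluster, which is deleted in Prader-Willi syndrome, were listed at 0 in all 6 libraries. Snord118 (U8), which serves the maturation of the large subunit RNA, stayed below the threshold with 7.36, 5.64 and 9.41 normalised counts in UtyGT nuclei and 3.75, 9.21 and 8.64 in WT nuclei. Snora73a, the second U17 gene, had 5.26, 8.45 and 2.09 in UtyGT nuclei and 10.3, 11.98 and 1.08 in WT nuclei.

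Some zeros stood beside features of the annotation. Of all 1196 genes at 0, 349 (29.2%) overlapped an exon of another gene on the same strand or had a sequence that another gene also carries, beside 8 (6.61%) of the 121 members. Of the 102 genes at 0 with a class by symbol or biotype, 60 overlapped an exon of another gene on the same strand. A sequence that another gene also carries was found in 30, so that 84 (82.4%) had at least one of these features. Among the 52 genes with a class that passed the rule, 2 (3.85%) did, both by exon overlap, and among the 40 with a class and a mean under 10 it was 11 (27.5%). Snord14a lay within an exon of Rps13, the other 3 U14 rows within exons of Hspa8, Snord22 within an exon of Snhg1 and Snord33 within an exon of Rpl13a. Each Rnu3b row had the sequence of 7 other genes. Most of the 17 Snord116 genes had a sequence shared with 29 other genes, so part of the 30 above comes from this cluster. Snord34, which like Snord32a and Snord35a lies in an intron of Rpl13a, had reads in every library, with a mean of 5.40. Whether reads of such genes were left out in the counting was not tested. The overlaps and copies come from GENCODE M21, whereas the paper counted reads on an Ensembl annotation of GRCm38. Among the members, 6 overlapped an exon of their host (Gm24616 in Eif4a2, Snora2b in Kansl2, Gm22486 in Ptcd3, Snora5c in Tbrg4, Gm23547 in Phb2 and Gm23946 in Timm23) and 2 had a copy of the same sequence, so their reads may be shared with another gene.

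**Figure D1:**
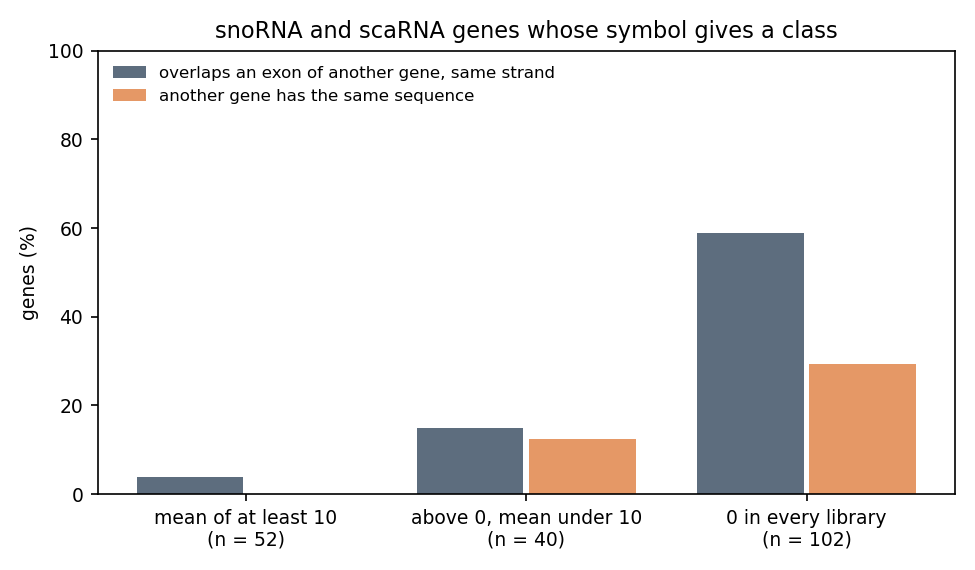
Share of snoRNA and scaRNA genes with a class by symbol or biotype (y axis, percent) that overlap an exon of another gene on the same strand (grey bars) or have a sequence that another gene carries too (orange bars), for genes that passed the mean of 10, genes above 0 below it and genes at 0. Exon overlap was found in 3.85%, 15% and 58.8% of the 52, 40 and 102 genes.

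The members were led by scaRNAs. Scarna2, a guide of U2 snRNA methylation in human cells that has no host gene, had 4942, 6946 and 4820 normalised counts in UtyGT nuclei (libraries 11, 15 and 31) and 5291, 5881 and 4135 in WT nuclei. Gm22009, an annotated scaRNA in an intron of Kpna4, had 2043, 2519 and 2224 in UtyGT nuclei and 2293, 2245 and 1593 in WT nuclei. Scarna13 had 1850, 2975 and 1799 in UtyGT nuclei and 2114, 2189 and 1654 in WT nuclei. The mouse groups overlapped for all 3 genes. Together these 3 genes held 41.1% to 48.3% of the summed level of the 121 genes, depending on the library.

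Only 4 of the 121 genes reached a mean of 1000, 30 reached 100 and 45 reached 50. The fourth was Snord15a, a guide of ribosomal RNA methylation, with 761, 1170 and 2082 normalised counts in UtyGT nuclei and 1037, 1433 and 952 in WT nuclei. Snord17 had 947, 693 and 922 in UtyGT nuclei and 1210, 617 and 645 in WT nuclei. Gm24494, which lies in an intron of Rabggtb and held neither box, had 621, 673 and 819 in UtyGT nuclei and 699, 854 and 481 in WT nuclei. Among the 12 highest genes, 5 were scaRNAs (the 3 above, Gm23119 and Gm25395) and 3 had C/D symbols (Snord15a, Snord17 and Snord87). The other 4 had no class by symbol or biotype (Gm24494, Gm25835, Gm26397 and Gm25291).

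**Figure D2:**
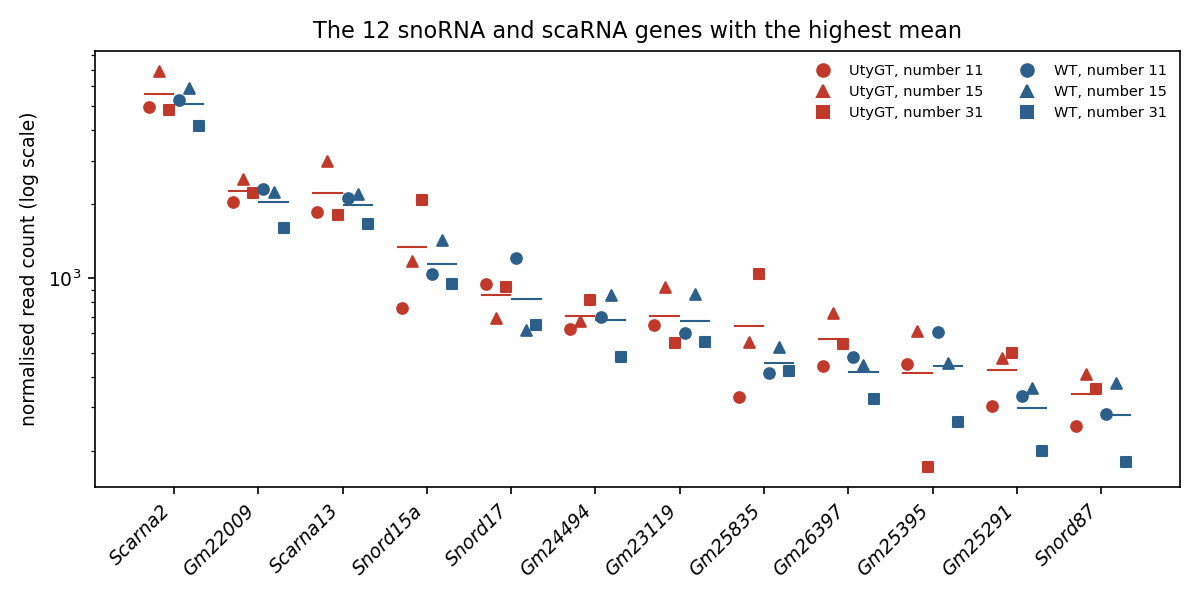
Normalised read counts (y axis, log scale) of the 12 genes with the highest mean, in UtyGT (red) and WT (blue) libraries numbered 11 (circles), 15 (triangles) and 31 (squares), with the group mean as a line. Scarna2 lies between 4135 and 6946, and the UtyGT library 31 is the highest for Snord15a (2082) and Gm25835 (1044).

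The scaRNAs had the highest median of the classes. Their 14 genes had a median of 161 normalised counts (from 12.97 to 5336), against 33.0 for the 25 C/D snoRNAs (10.9 to 1239), 45.6 for the 13 H/ACA snoRNAs (18.9 to 158) and 23.4 for the 69 genes without a class (10.1 to 691). The annotated lengths ran from 64 to 414 nucleotides (nt) and the 10 genes of 200 nt or more had a median of 336 normalised counts, against 30.999 for the 77 genes of 100 to under 200 nt and 20.3 for the 34 shorter ones. Per 100 nt of annotated length the 3 length classes had medians of 125, 23.3 and 28.4 normalised counts. On the same per-length scale the leading genes were Scarna2 (1289), Gm24494 (853), Snord15a (837), Scarna13 (762) and Gm22009 (628), so a gene of 81 nt stood beside the longest. Reads of 100 bases can be longer than the 34 shorter genes, so values per 100 nt are not comparable densities between the length classes. The RNA was purified on silica columns, which retain short RNA less well than long RNA, and its part in the levels was not tested.

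**Figure D3:**
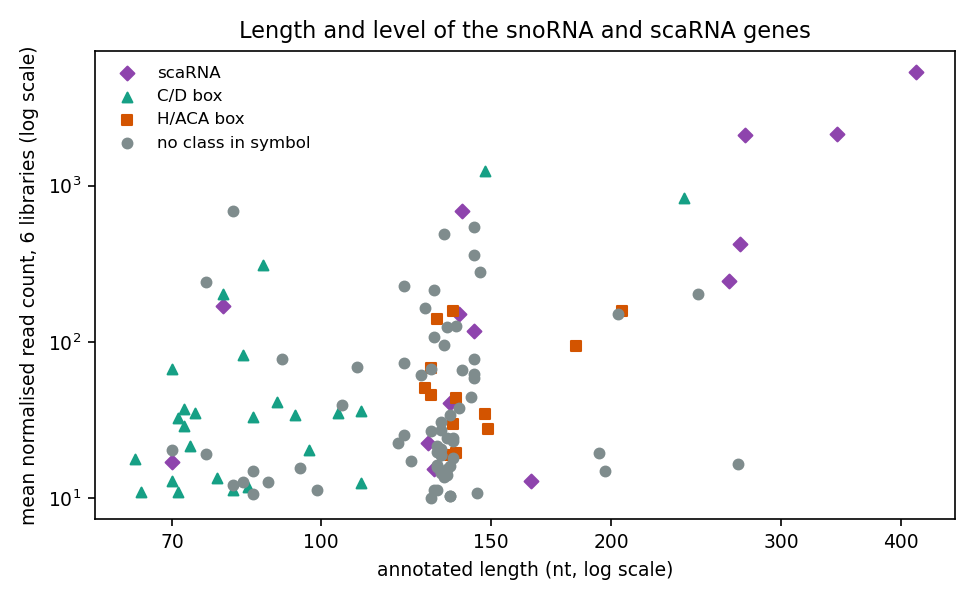
Annotated length (x axis, nucleotides, log scale) and mean normalised read count over 6 libraries (y axis, log scale) of each of the 121 genes, by class. The highest point is Scarna2 at 414 nt and 5336 normalised counts, while Gm24494 reaches 691 at 81 nt.

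Nearly all of the 121 genes sat inside other genes. A host gene on the same strand was found for 113, and 107 lay wholly in an intron. The 113 genes had 100 distinct hosts, and 104 of the genes lay in a protein-coding host. Of the 113 genes 7 had a higher mean than their host, in counts that were not adjusted for length. In nuclear RNA, reads of a host intron over a member cannot be told apart from reads of the member itself. The levels of these genes may therefore include reads of the host. The 8 without a host included Scarna2, Gm23119, Scarna17, Snora17, Snord104, Snora57 and Gm23951. The members were spread over 20 chromosomes, 120 being autosomal and 1 (Snord61, in an intron of Rbmx) on the X chromosome, and none lay on the Y chromosome.

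The first comparison asked whether the gene trap in Uty went with other levels of these RNAs. None of the 121 genes passed an adjusted p of 0.05 (limma on log2 of the normalised count plus 1, Benjamini-Hochberg adjustment over 16202 genes), where 0.00617% of all genes did (1 gene, Uty, lower in UtyGT, and 2 with the replicate number as a block). At an unadjusted p under 0.05 there were 2 members, beside 1.2% of all genes. With edgeR and with DESeq2 on the recovered reads, 0 members passed as well. The limma test without a block did not call Ddx3y, the neighbour of Uty that the paper reports as reduced in these nuclei. Ddx3y had 230, 257 and 87.8 normalised counts in UtyGT nuclei and 1334, 1143 and 1211 in WT nuclei. Its log2 difference was -2.82 (SE 0.38, adjusted p = 0.9996 by limma). A gene short of the threshold may therefore still differ. The median log2 difference of the members was 0.11 (UtyGT over WT), with 86 of 121 above 0, against -0.01 for all genes, of which 48.6% were above 0.

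That median was not steady over the libraries. Between libraries of equal number the members had a median of -0.13 (number 11), 0.18 (number 15) and 0.15 (number 31), and 53, 82 and 72 of the 121 genes were higher in the UtyGT library. Leaving out single libraries gave medians of 0.05 (without WT library 31) to 0.22 (without WT library 15). In all 3 pairs 14 members were higher in UtyGT and 5 were lower. Over all genes tested, 8.51% were higher and 8.92% were lower in the 3 pairs. The summed level of the 121 genes was 19216, 25734 and 21533 normalised counts in UtyGT libraries and 21603, 22170 and 16285 in WT libraries, so the groups overlapped. The sums averaged 22161 ± 3304 in UtyGT and 20019 ± 3246 in WT (SD, n = 3 each), and made between 0.0827% and 0.12% of the gene reads of a library.

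The classes gave alike medians. The median log2 difference (UtyGT over WT) was 0.09 for the 14 scaRNAs, 0.13 for the 25 C/D snoRNAs, 0.10 for the 13 H/ACA snoRNAs and 0.11 for the 69 genes without a class. These values are descriptions of sets of genes that share libraries. The 5 atrial cardiomyocyte markers had a lower summed level in UtyGT libraries (674, 749 and 1219) than in WT libraries 11 and 15 (2225 and 3140), while WT library 31 had 1115; all 5 had an unadjusted p under 0.05 and none passed the adjusted threshold. The leukocyte markers summed to 7604, 620 and 12958 in UtyGT libraries and 17903, 1499 and 13925 in WT libraries, and none of the 6 passed. The part of either list in the values of the members was not tested.

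In 8 members every UtyGT library was above every WT library, and in 1 member every UtyGT library was below. This made 6.61% and 0.826% of the members, beside 3.1% and 2.32% of all genes. The largest of these differences was that of Gm22270, an ACA box gene in an intron of Rpl5, with 24.2, 24.4 and 34.5 normalised counts in UtyGT nuclei and 20.6, 7.37 and 7.56 in WT nuclei. WT library 11 lay close to the UtyGT libraries and the other 2 were low. Its log2 difference was 1.29 (SE 0.46, unadjusted p = 0.0264, adjusted p = 0.9996 by limma), and it ranged from 1.06 without WT library 15 to 1.74 without WT library 11. Rpl5 itself had a log2 difference of -0.06.

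Scarna9, in human cells a guide of U2 snRNA methylation, had 19.99, 26.3 and 19.9 normalised counts in UtyGT nuclei and 10.3, 13.8 and 11.9 in WT nuclei. The groups did not overlap, and the log2 difference was 0.82 (SE 0.31, unadjusted p = 0.0348, adjusted p = 0.9996 by limma). With the replicate number as a block the SE was 0.38 and the unadjusted p 0.0589. Gm24339, a C/D gene 130 bases away in the same host Cep295, had 215, 295 and 284 in UtyGT nuclei and 264, 245 and 156 in WT nuclei, so its groups overlapped. The ratio of Gm24339 to Scarna9 was 10.7, 11.2 and 14.3 in UtyGT libraries and 25.6, 17.7 and 13.1 in WT libraries.

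Another 3 members with higher estimates in UtyGT had an unadjusted p above 0.05. Gm24616, which overlaps an exon of Eif4a2, had 43.1, 49.8 and 38.7 normalised counts in UtyGT nuclei and 31.9, 32.3 and 30.3 in WT nuclei, with no overlap (log2 difference 0.46, SE 0.22). Gm26397, an ACA box gene in an intron of Tomm20, had 441, 724 and 544 in UtyGT nuclei and 481, 445 and 324 in WT nuclei, where UtyGT library 11 fell among the WT values (0.44, SE 0.22). Gm25291, an ACA box gene in an intron of Sec24a, had 303, 477 and 498 in UtyGT nuclei and 333, 359 and 200 in WT nuclei, with overlap (0.53, SE 0.28). The 95% intervals of these 3 log2 differences all included 0 without a block. With the replicate number as a block the unadjusted p was 0.0394 for Gm26397 and the adjusted p by limma was 0.9997. Without UtyGT library 15 the log2 difference of Gm26397 was 0.25, and without WT library 31 that of Gm25291 was 0.27.

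On the lower side, Gm24920 in an intron of Pip5k1a had 8.42, 14.1 and 10.5 normalised counts in UtyGT nuclei and 18.8, 22.1 and 16.2 in WT nuclei, the only member whose UtyGT libraries all lay below WT (log2 difference -0.76, SE 0.35). Snord59a had 25.2, 37.6 and 28.2 in UtyGT nuclei and 39.4, 34.1 and 45.4 in WT nuclei (-0.38, SE 0.26). Snord72, in an intron of Rpl37, had 5.26, 12.2 and 9.41 in UtyGT nuclei and 14.1, 14.7 and 11.9 in WT nuclei (-0.61, SE 0.42). Snora47 (-0.25, SE 0.23) and Gm22581 (-0.50, SE 0.47) followed. Snord72 was at -0.31 without UtyGT library 11, and Gm22581 was at -0.24 without WT library 31 and -0.88 without WT library 11. For the last 4 of these genes the groups overlapped. Snord72 and Gm22581 averaged below 10 in UtyGT nuclei and above 10 in WT nuclei. They passed the rule through the group where they are high, so their direction is partly set by the selection.

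For the 3 highest members the 95% interval of the log2 difference (UtyGT over WT) was -0.31 to 0.55 for Scarna2, -0.21 to 0.53 for Gm22009 and -0.38 to 0.63 for Scarna13, whose estimates were 0.12, 0.16 and 0.12. The narrowest interval of the 121 was that of Gm24233, an ACA box gene in an intron of Mia2, at -0.19 to 0.32. It had 236, 236 and 228 normalised counts in UtyGT nuclei and 240, 212 and 216 in WT nuclei. On the log2 scale the 45 members with a mean of at least 50 had a median within-group SD of 0.36 (quartiles 0.28 and 0.46). Over all 12227 genes with such a mean it was 0.17 (0.12 and 0.26). Both sets share this minimum but were not matched in level. Below 50 the medians were 0.41 for the members and 0.46 for all genes.

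A single library decided some of these values. For Snord15a and Gm25835 the UtyGT library 31 was the highest of the 6 (2082 and 1044 normalised counts), although these genes lie on different chromosomes in different hosts. Gm25835 had 331, 550 and 1044 in UtyGT nuclei and 414, 527 and 420 in WT nuclei. Without UtyGT library 31 the log2 difference was -0.25 for Snord15a, where it was 0.13 with all libraries, and -0.08 for Gm25835, where it was 0.35. Their hosts Rps3 (656) and Eif4a1 (1203) in that library lay within the range of the other libraries.

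Members with roles in ribosomal RNA processing showed no difference past the threshold. Snora73b had 168, 197 and 148 normalised counts in UtyGT nuclei and 210, 94.9 and 123 in WT nuclei (log2 difference 0.33, SE 0.29), a difference of 0.08 without WT library 15 and 0.65 without WT library 11. Its near copy Gm26448 had 143, 177 and 125 in UtyGT nuclei and 177, 147 and 143 in WT nuclei (-0.08, SE 0.17), and reads that match both genes cannot be placed with certainty. Snora62 (E2), which lies 861 bases from Gm26448 in the same host Rpsa, had 27.4, 24.4 and 31.4 in UtyGT nuclei and 19.7, 36.9 and 28.1 in WT nuclei, with overlap. Of the Rpl13a snoRNAs, which in mice have been tied to lipid stress, Snord32a had 69.4, 96.8 and 108 in UtyGT nuclei and 68.5, 105 and 45.4 in WT nuclei, and Snord35a had 51.6, 38.5 and 30.3 in UtyGT nuclei and 35.6, 62.7 and 29.2 in WT nuclei.

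The remaining scaRNAs were Gm24644, Gm22442, Gm27653, Gm25492, Gm26347 and Gm22767, with means of 12.97 to 151 normalised counts, Gm24644 (159, 167 and 136 in UtyGT nuclei, and 130, 119 and 194 in WT nuclei) being the highest. Their groups overlapped in each case.

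**Figure D4:**
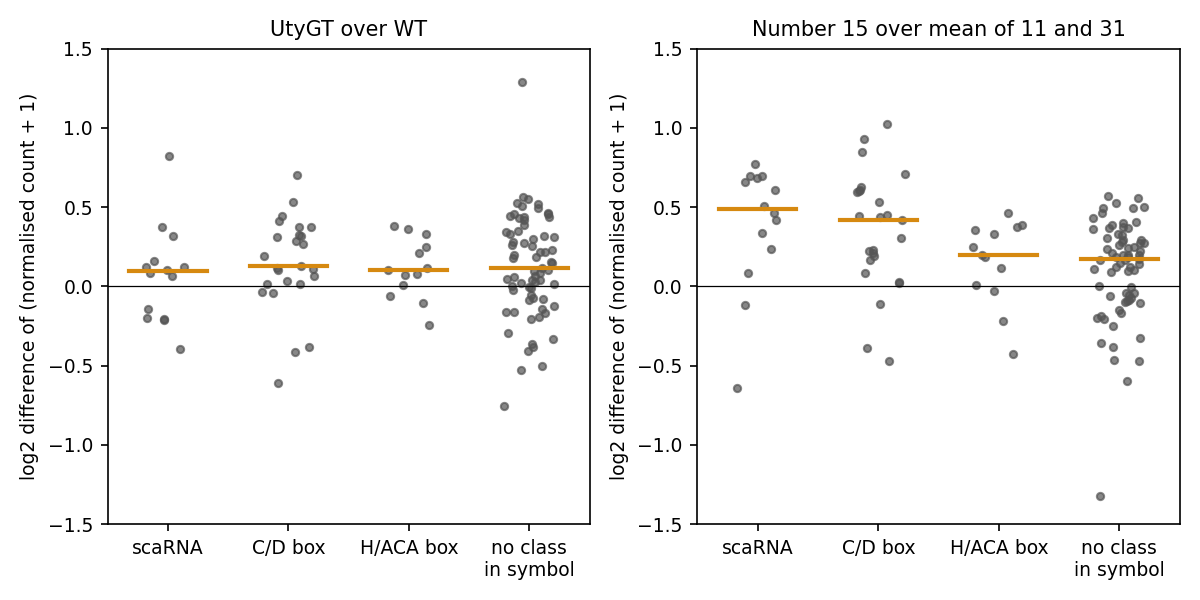
Log2 difference of each member (points) by class, between UtyGT and WT (left panel) and between number 15 and the mean of numbers 11 and 31 (right panel), on log2 of the normalised count plus 1, with the class median as an orange line. The medians lie between 0.09 and 0.13 on the left and between 0.17 and 0.49 on the right.

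The proteins that act with these RNAs were measured in the same libraries. None of the 4 C/D core proteins (Fbl, the methylase fibrillarin, with Nop56, Nop58 and Snu13), the 4 H/ACA core proteins (Dkc1, the pseudouridine synthase dyskerin, with Nop10, Nhp2 and Gar1), the 16 assembly and Cajal body genes tested, the 16 genes of 3′ end trimming and decay tested or the 24 proteins of the U3 processome passed the threshold in either comparison. Their median log2 differences (UtyGT over WT) were 0.03, 0.20, -0.02, -0.00 and 0.02, beside -0.01 for all genes. Dkc1 had 0.13 (SE 0.13), Gar1 0.35 (SE 0.22) and Nhp2 0.27 (SE 0.19), while Nop10 had -0.08 (SE 0.23). Fbl had -0.12 (SE 0.14) and Nop56 0.04 (SE 0.11). Of the 99 tested hosts 0 passed between the mouse groups, and their median was 0.01.

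The second comparison asked how the members differed with the library number. Of the 121 genes 2 passed the adjusted p of 0.05, where 4.79% of all genes did (776 genes). The test asks for any difference among the 3 numbers, and direction is only the sign of number 15 over the mean of 11 and 31. By that sign both members were higher in number 15, although Gm25395 had its highest WT value in number 11. Over all genes 5 called genes were higher (0.0309%) and 771 lower by that sign. The median log2 difference of the members, number 15 over the mean of numbers 11 and 31, was 0.22, against 0.02 for all genes. It was above 0 for 90 of the 121 members and for 53.2% of all genes. By group the median of the members was 0.27 in UtyGT libraries and 0.23 in WT libraries. The class medians of this difference were 0.49 for scaRNAs, 0.42 for C/D snoRNAs, 0.20 for H/ACA snoRNAs and 0.17 for genes without a class. In 16 members (13.2%) both number 15 libraries were above the other 4, beside 11.5% of all genes, and in 3 (2.48%) they were below, beside 15% of all genes. The 6 leukocyte markers all passed the threshold and were lower in number 15 (median log2 difference -3.75). All 6 fibroblast markers had log2 differences below 0 (-1.39 to -1.03, median -1.21) and none passed. The part of either list in the values of the members was not tested.

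Gm25395 was one of the 2 called genes. It had 450, 613 and 173 normalised counts in UtyGT nuclei and 607, 453 and 263 in WT nuclei, so that number 31 was lowest in both groups. Its log2 difference was 0.66 (SE 0.21) for number 15 over the mean of 11 and 31 and -1.29 for number 31 over 11 (adjusted p = 0.0199 by limma over the 3 numbers). The difference for number 15 was 0.18 without UtyGT library 15 and 1.13 without WT library 15, and in WT nuclei number 15 lay below number 11. Scarna6, in human cells a guide for U5 snRNA, had 234, 356 and 116 in UtyGT nuclei and 322, 279 and 167 in WT nuclei, again lowest in number 31 (0.69, SE 0.21, adjusted p = 0.0524 by limma). This difference was 0.27 without UtyGT library 15 and 1.11 without WT library 15. The ratio of Gm25395 to Scarna6 stayed between 1.49 and 1.93 over the 6 libraries. Their host Atg16l1 had 1040, 1130 and 989 in UtyGT nuclei and 1091, 951 and 1229 in WT nuclei, a log2 difference of -0.06 for number 15, and was not lowest in number 31 of the WT group.

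Gm23119, the other called gene, is a scaRNA of chromosome 18 without a host. It had 646, 922 and 546 normalised counts in UtyGT nuclei and 599, 861 and 550 in WT nuclei, the number 15 library being highest in both groups (log2 difference 0.61, SE 0.12, adjusted p = 0.0417 by limma). Scarna17, which lies 91 bases away, had 156, 240 and 136 in UtyGT nuclei and 141, 219 and 133 in WT nuclei (0.70, SE 0.17, adjusted p = 0.155 by limma). The ratio of Gm23119 to Scarna17 was 3.83 to 4.26 in every library, the steadiest of the 10 pairs of members that were compared. Neither call held under every setting tried: with every gene above 0 kept in the test 0 members passed, and Gm23119 also missed the threshold among genes with a mean of at least 50. Gm25395 missed it without UtyGT library 31, and Gm23119 without UtyGT library 15, UtyGT library 31 or WT library 15. The number of members past the threshold changed with the single library left out, as did that of all genes. Such fits keep 1 library of the number concerned, so these counts say nothing particular about the members.

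Other members with an unadjusted p under 0.05 over the numbers were Gm24336 (log2 difference 0.49, SE 0.15), Scarna2 (0.42, SE 0.12), Scarna13 (0.47, SE 0.14) and Snord17, which was lower in number 15 (-0.47, SE 0.17). Without single libraries these ran from 0.23 (without UtyGT library 15) to 0.71 (without WT library 15) for Scarna13 and from -0.65 to -0.30 (without WT library 11) for Snord17. In all 8 such members made up 6.61% of the 121, beside 9.57% of all genes. Snord49b, in an intron of the noncoding 2410006H16Rik, had 14.7, 42.3 and 36.6 normalised counts in UtyGT nuclei and 21.6, 40.5 and 17.3 in WT nuclei. Snord49a, 299 bases away in the same host and identical at 51 of 74 aligned positions (68.9%), had 32.6, 41.3 and 39.7 in UtyGT nuclei and 36.6, 40.5 and 31.3 in WT nuclei. Their ratio of Snord49a to Snord49b therefore ran from 0.978 to 2.21.

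Members and their hosts did not always share a direction between the numbers. Of the 99 hosts tested 1 passed, Chd3, a chromatin remodeller, with 225, 109 and 336 normalised counts in UtyGT nuclei and 393, 146 and 358 in WT nuclei (log2 difference of number 15 -1.34, SE 0.19, adjusted p = 0.00792 by limma). Gm22442, the scaRNA in its intron, had 65.2, 161 and 86.8 in UtyGT nuclei and 159, 147 and 88.6 in WT nuclei, a log2 difference of 0.70. Snx5, an endosomal sorting gene, had 643, 523 and 959 in UtyGT nuclei and 1104, 548 and 904 in WT nuclei (-0.72, SE 0.18, adjusted p = 0.149 by limma), and its members had -0.47 (Snord17) and 0.30 (Gm26165). Gm26165 had 89.4, 146 and 179 in UtyGT nuclei and 146, 129 and 65.9 in WT nuclei, so the ratio of Snord17 to Gm26165 ran from 4.76 to 10.6. For the 112 members with a tested host, the member and its host had the same sign of the log2 difference in 58 for number 15 and in 65 for UtyGT over WT. Reads of a host intron and of the snoRNA in it cannot be told apart where they overlap.

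**Figure D5:**
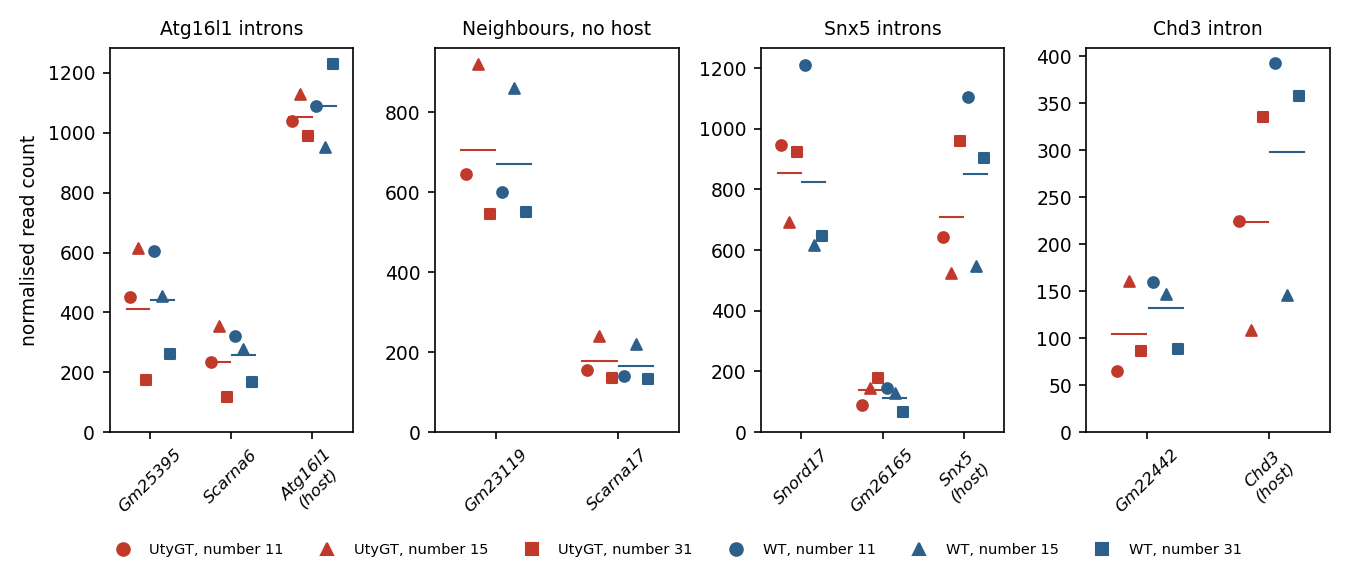
Normalised read counts (y axis, from 0) of 4 sets of neighbouring members and their hosts in UtyGT (red) and WT (blue) libraries numbered 11 (circles), 15 (triangles) and 31 (squares), with group means as lines. Number 31 is lowest for Gm25395 (173 and 263) and Scarna6 (116 and 167), number 15 is highest for Gm23119 (922 and 861), and number 15 is lowest for Chd3 (109 and 146).

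Gm25788 and Gm22154, in introns of Pabpc4, differ at few positions (96.9% identity over 131 aligned positions), so reads may be shared between them. Gm25788 had 208, 284 and 211 normalised counts in UtyGT nuclei and 237, 179 and 164 in WT nuclei, and Gm22154 had 101, 146 and 99.3 in UtyGT nuclei and 90.0, 108 and 99.4 in WT nuclei. Gm25788 was the higher of the pair in every library, by 1.65 to 2.64 times. At the low end Gm22192, with 10.5, 7.52 and 12.5 in UtyGT nuclei and 15.004, 2.76 and 15.1 in WT nuclei, was the only member with 3 or fewer reads in a library. The mean was at least 10 in UtyGT alone for 1 member (Rnu73b) and in WT alone for 7, among them Snord72 and Gm22581.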

How the data were processed

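Nuclear total RNA libraries (SMARTer Stranded Total RNA-Seq Pico v2, 100 bp paired-end) were prepared from RNA purified on RNeasy micro columns. Per the labels and methods, the authors aligned reads with STAR 2.5.1b to GRCm38, counted them per gene with featureCounts 1.6.0 and divided the counts by DESeq2 1.22.2 size factors. The strand setting and the handling of reads shared by genes are not given in the sources used here. The deposited signal values are these normalised read counts, from which whole reads were recovered for 100% of values within 0.0001 reads. The authors' own fold change and p-value columns were not used, and 0 columns of other samples were present.

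The members and gene lists were chosen with earlier results of these data known. Values were tested as log2(normalised count + 1) with limma 3.58.1 (trend) in R 4.3.3 for 16202 genes (mean over 6 libraries 10 or more), with Benjamini-Hochberg adjustment at 0.05. Fold changes on this scale understate the change of low genes. The mouse groups were compared without a block, and the numbers by a test over 3 levels with the group as covariate. The named genes were the 12 highest members, those past the threshold, the 5 smallest p-values in each direction, members with textbook roles and the rows nearest the mean of 10. Gm24339, Gm24233, Gm26165, Gm25788, Gm22154, Gm26448, Gm22192, Snord49a and Snord49b, outside this rule, were chosen after their values were seen. Some items that the rule names are not reported here. Members were matched by gene ID to GENCODE M21 (121 of 121), and a host is a gene of the same strand whose body holds the member. Alternatives were edgeR 4.0.16 and DESeq2 1.42.0 on the recovered reads, other pseudocounts, filters and scaling, a replicate block, the deposited table of 4 libraries and leaving out libraries. Deviations from the group mean correlated between the UtyGT and WT libraries of one number across 16202 genes. The r was 0.25, 0.80 and 0.41 for numbers 11, 15 and 31, so the numbers were taken to pair the libraries. However, UtyGT 31 correlated more with WT 11 (r = 0.73), and UtyGT 11 more with WT 31 (r = 0.41), than with the library of equal number. The values by pair and the replicate block rest on this pairing. Each fit was run on simulated data that held no spread between the numbers apart from the changes put in. Its recovery is therefore no guide to the unblocked test between the mouse groups. Library depth limits low genes: 3 reads correspond to 2.76 to 3.24 normalised counts, and this covers counting error only.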

Additional observations from a re-analysis of the deposited data

Results flagged for a closer look

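There were 16 snoRNA and scaRNA genes with a mean under 10, outside the main comparisons, that had more than 3 reads in each of the 6 libraries, which is above the limit that a count of 0 allows. They included Gm26175 (mean 9.49), Gm22728 (9.29), Snord91a (8.28), Snord88c (7.39), Snord118 (7.34) and Snord58b (6.14).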

How the results depend on the processing

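No member passed between UtyGT and WT under any alternative, and the median of the members stayed between 0.05 (without WT library 31) and 0.22 (without WT library 15). With the replicate block, which pairs libraries of equal number, 2 genes were lower in UtyGT over all genes and 0 members passed. DESeq2 also gave 2 genes, and leaving out single libraries gave 1 to 2. The block changed no other call. Without both libraries numbered 15, an alternative chosen after seeing the data, 1 gene and 0 members passed and the median was 0.10.

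Between the numbers, the count of all genes was 478 with a mean of at least 50, and leaving out single libraries gave 373 (without WT library 15) to 1240 (without UtyGT library 11). The members called were 0 with every gene above 0 kept, 1 with a mean of at least 50, and 1 to 6 without single libraries. The median of the members for number 15 was 0.15 to 0.27 without single libraries. Scarna13 between the mouse groups was -0.036 without number 15 and -0.030 in the table of 4 libraries, and Snora73b was -0.025 and -0.020.

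Log2 differences (UtyGT over WT) that changed sign without a single library ranged from -0.049 to 0.23 for Scarna2, -0.0095 to 0.25 for Gm22009, -0.11 to 0.25 for Scarna13, -0.25 to 0.48 for Snord15a, -0.078 to 0.75 for Gm25835, -0.58 to 0.33 for Gm25395, -0.58 to 0.22 for Scarna6 and -0.21 to 0.036 for Gm26448. The causes were not tested.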
